A study of Mus musculus with 6 samples.

Results

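The globin genes and 4 transcription factors that regulate the switch from embryonic to adult globins were followed in E13.5 mouse fetal liver. The 10 genes are the embryonic globins Hba-x, Hbb-bh1 and Hbb-y, the adult globins Hba-a1, Hbb-b1 and Hbb-b2, and the regulators Bcl11a, Sox6, Klf1 and Myb. Probes were taken where the deposited table named one of these symbols, which gave 31 of the 45281 probes on the array. Of these, 22 had a detection p below 0.05, a comparison with negative control beads, on at least 3 of the 6 arrays. These 22 probes, from all 10 genes, are among the 17855 probes that passed the same filter and were tested. The other 9 probes are 1 each of Hbb-b1 and Bcl11a, 4 of Sox6 and 3 of Myb, with deposited signals between 119.2 and 165.7, near the array medians of 137.0 to 144.0.

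Total RNA was hybridised to 6 Illumina bead arrays, 3 for each group. The double transgenic livers carried both R26-LSL-KITD816V and Vav-iCre, and the controls carried 1 of them, Vav-iCre in control replicate 1 and R26-LSL-KITD816V in control replicates 2 and 3. The strain of every sample was C57/Bl6:129Sv. R26-LSL-KITD816V is a transgene in the ROSA26 locus for KIT with the D816V substitution, which keeps this receptor kinase active without its ligand. It is silent until Cre removes a stop cassette. Vav-iCre makes Cre in blood-forming cells and their descendants, so hepatocytes of the double transgenic livers are not its main target. All 6 arrays shared 1 chip, with the controls in its first 3 positions, so position and group cannot be told apart. The labels name no embryo or litter for a replicate. The p-values therefore rest on the scatter among these arrays, part of which may be technical.

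Haemoglobin pairs alpha-like with beta-like globin chains, and each mouse globin cluster holds genes for successive stages of life. Hba-x (zeta) and Hba-a1 (alpha) lie in the alpha cluster on chromosome 11, and Hbb-y (epsilon-y), Hbb-bh1 (beta-h1) and the adult beta genes lie in the beta cluster on chromosome 7. Primitive red cells of the yolk sac carry mostly embryonic chains, and definitive red cells, which the fetal liver makes, carry mostly adult chains. In definitive cells the repressor BCL11A, with SOX6 as a partner, silences embryonic beta-like genes. KLF1 binds CACCC boxes and activates the adult beta genes and Bcl11a, and MYB keeps erythroid progenitors dividing. Both main cell types of the labelled tissue were detected, with 12 of 13 general erythroid markers and 11 of 13 hepatoblast and hepatocyte markers on the array passing the filter.

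RefSeq promoter sequences (GRCm38.p6) matched 7 of the 10 genes. The 130 bases upstream of the annotated start are shown for the embryonic alpha-like gene that rose, its adult counterpart, the embryonic gene Hbb-y, and Hbb-bs, an adult beta gene of C57BL/6. They set embryonic beside adult starts. Hbb-bh1, the other gene that rose, is not shown. Capitals mark the matches, on either strand, to 7 motifs. These are the KLF motif CACCC, the promoter box CCAAT, the GATA factor motif GATAA, the BCL11A motif TGACCA, the SOX core written AACAAT, and the TATA-like pair, ATATAA with its shorter variant ATAAA. The TATA-like pair can overlap, and so can the BCL11A motif and the promoter box.
Hba-x promoter, chr11:32276470-32276599, plus strand: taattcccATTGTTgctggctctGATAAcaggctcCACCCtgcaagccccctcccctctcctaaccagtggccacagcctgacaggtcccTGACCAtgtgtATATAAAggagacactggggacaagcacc
Hba-a1 promoter, chr11:32283542-32283671, plus strand: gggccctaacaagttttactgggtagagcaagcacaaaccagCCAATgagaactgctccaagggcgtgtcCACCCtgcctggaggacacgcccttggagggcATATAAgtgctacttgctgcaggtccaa
Hbb-y promoter, chr7:103853208-103853337, minus strand: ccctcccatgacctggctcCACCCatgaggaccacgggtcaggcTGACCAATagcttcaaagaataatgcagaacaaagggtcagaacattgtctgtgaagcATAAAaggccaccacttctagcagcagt
Hbb-bs promoter, chr7:103827929-103828058, minus strand: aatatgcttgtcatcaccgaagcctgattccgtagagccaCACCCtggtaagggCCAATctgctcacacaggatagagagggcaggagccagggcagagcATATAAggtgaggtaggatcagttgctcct

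All 4 promoters held a CACCC motif, which was present in 33.8% of 32454 promoter windows of the same length. TGACCA, which BCL11A is known to bind in human gamma-globin promoters, stood in the embryonic Hba-x and Hbb-y windows and in neither adult window. It occurred in 6.11% of all windows. In Hba-x it began 40 bases upstream of the start, and in Hbb-y it began 86 bases upstream and overlapped a CCAAT motif (22.3% of all windows). The CCAAT motif was also in both adult windows, and ATATAA (4.76% of all windows) was in Hba-x and both adult windows. Of the 4 windows the Hba-x window alone held GATAA (11.3% of all windows) and the SOX core, read here on the opposite strand (4.43% of all windows). These matches describe the letters of the windows and are not binding sites measured in these livers.

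Among the embryonic globins, Hba-x and Hbb-bh1 rose in the double transgenic livers, by 2.56-fold and 2.05-fold in fitted signal, while neither Hbb-y probe passed the test. No probe of the adult globins passed by limma, and 1 of their 12 probes (8.33%) had an unadjusted p below 0.05, against 22.1% of all probes. That background is not a like one. On all 6 arrays 10 of the 12 were near the signal ceiling, a class in which 0 of 132 probes had such a p. Of the regulators, 1 of the 2 measured Bcl11a probes rose, by 1.72-fold, and no probe of Sox6, Klf1 or Myb passed. In total 3 of the 22 probes passed at an adjusted p below 0.05 (13.6%), all upward, against 8.10% of all 17855 probes (2.32% higher and 5.78% lower in double transgenic livers). Groups lay fully apart for 7 of the 22 probes (31.8%), against 27.5% of all probes, which is near the share of the whole array. The 3 calls all fell among the 10 probes that were not near the signal ceiling, taken as 50% of an array's brightest signal, on all 6 arrays (30%), a range in which 8.16% of all probes passed. Hba-x is among these 10 only because its control values were low. The share of 30% thus depends in part on the differences themselves and is no separate result. No p is given for these shares, since the members were chosen with results known. Over all probes 414 were called higher and 1032 lower, and with the replicate number as a block 910 and 1469.

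**Figure D1:**
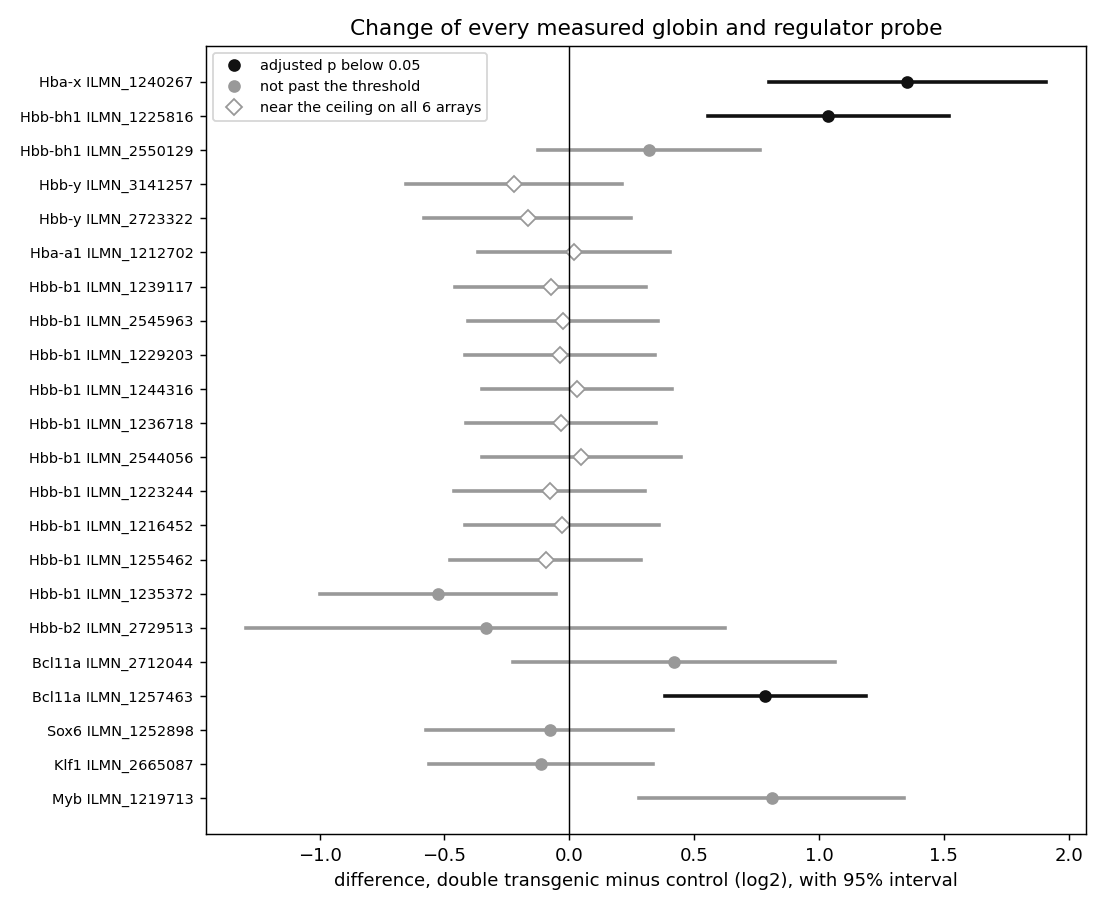
Difference of each of the 22 probes, double transgenic minus control (log2 scale, horizontal axis), with its 95% interval. Black marks passed at an adjusted p below 0.05, and open diamonds are probes near the signal ceiling on all 6 arrays. Hba-x, the brighter Hbb-bh1 probe and 1 Bcl11a probe lie to the right of 0, and the near-ceiling probes crowd around 0.

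Levels are background-corrected, quantile normalized log2 intensities. Each is compared between groups for the same probe only, since bead signals of different probes share no scale. The summed intensities of marker lists given below are an exception and weigh the brightest probes most. Hba-x, which encodes the embryonic zeta chain, had levels of 14.32, 14.95 and 15.16 in double transgenic replicates 1 to 3, against 13.55, 13.30 and 13.52 in control replicates 1 to 3. All 3 double transgenic livers lay above all 3 controls, and their own spread was the wider. The means were 14.81 ± 0.44 in double transgenic livers and 13.46 ± 0.14 in controls (SD, n = 3 each), a difference of 1.35 (SE 0.24, 95% interval 0.80 to 1.91, adjusted p = 0.0101). The call was lost without control replicate 2 (1.28, adjusted p = 0.0515).

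Hbb-bh1, the embryonic beta-h1 gene, was measured by a bright and a dim probe. The bright probe stood at 14.20, 14.10 and 14.47 in the double transgenic livers and at 13.47, 12.92 and 13.27 in the controls. Again the groups did not overlap, with the lone Vav-iCre control the highest of the controls. The difference was 1.04 (SE 0.21, 95% interval 0.56 to 1.52, adjusted p = 0.0185), and it no longer passed without control replicate 2, control replicate 3 or double transgenic replicate 3 (adjusted p = 0.0956, 0.0685 and 0.0705). The dim probe read 5.85, 5.46 and 5.76 in double transgenic livers and 5.39, 5.19 and 5.53 in controls, where the groups overlapped. Its deposited signals of 151.7 to 172.5 lay close to the background, and its difference of 0.32 (95% interval -0.13 to 0.76) did not pass (adjusted p = 0.389). With both probes averaged the gene stood at 0.68 and did not pass (adjusted p = 0.0660).

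Within each replicate number, the double transgenic liver exceeded the control of the same number for Hba-x by 0.77, 1.65 and 1.64 and for the bright Hbb-bh1 probe by 0.73, 1.18 and 1.21. Number 1 gave the lowest difference for each, and there the control is the Vav-iCre liver. For Hba-x double transgenic replicate 1 was also the lowest of its group (14.32, against 14.95 and 15.16). The Vav-iCre control (13.55) was close to control replicate 3 (13.52). Set against the 2 R26-LSL-KITD816V controls alone, the double transgenic means were higher by 1.40 for Hba-x and 1.16 for Hbb-bh1, and against the single Vav-iCre control by 1.26 and 0.79.

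**Figure D2:**
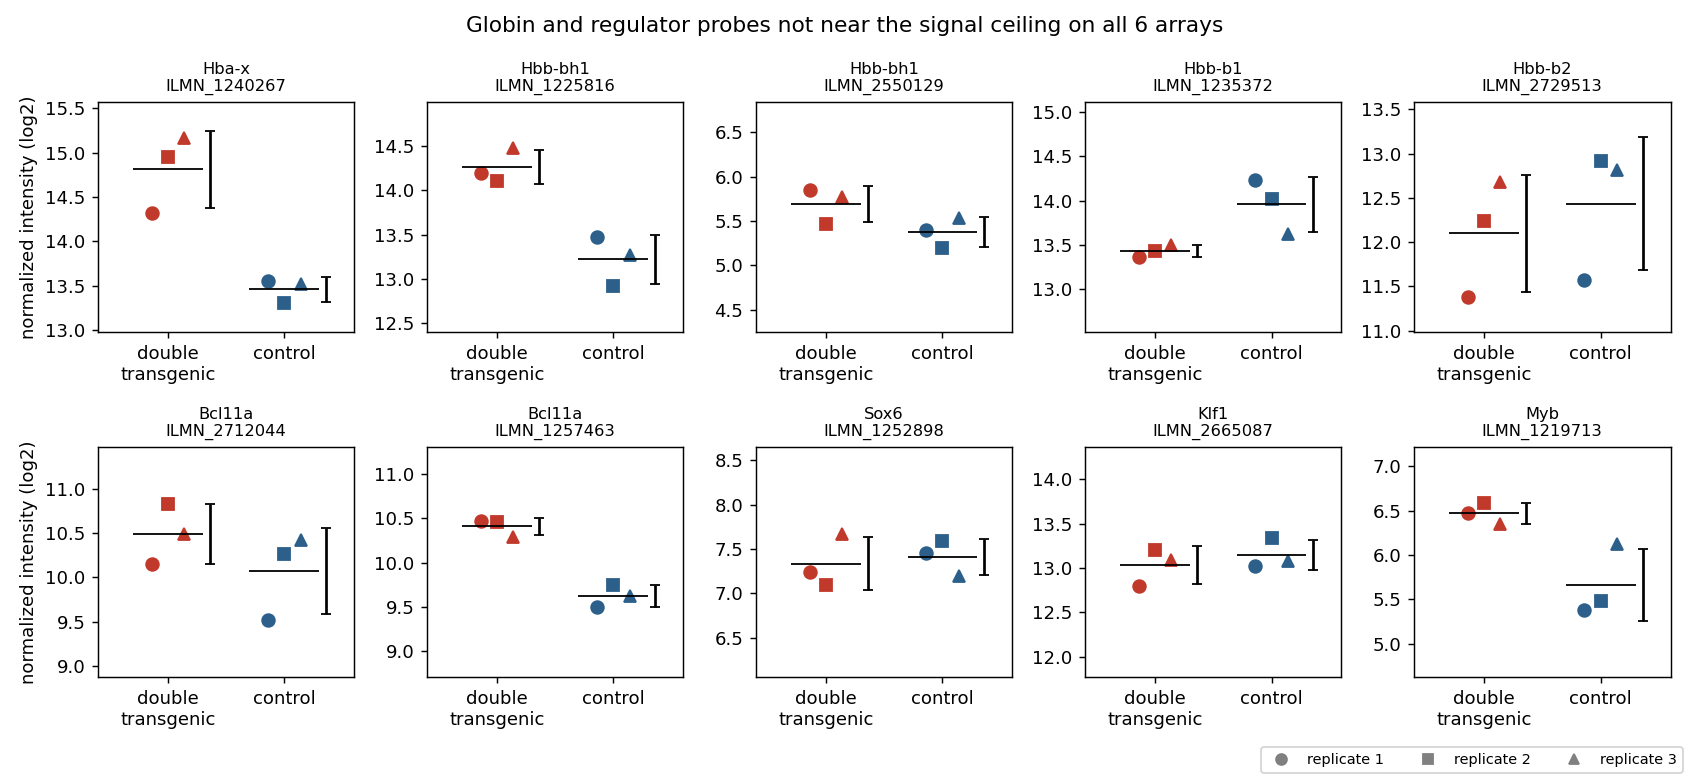
Normalized log2 intensity (vertical axis) on each array for the 10 probes that were not near the signal ceiling on all 6 arrays, double transgenic livers at the left and controls at the right of each panel. Marker shapes are replicates 1 to 3, horizontal lines the group means and bars 1 SD either side, and each panel has its own range. The groups lie apart for Hba-x, the bright Hbb-bh1 probe, Hbb-b1, 1 Bcl11a probe and Myb, and replicate 1 of each group is the low one for Hbb-b2.

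Hbb-y, which encodes the embryonic epsilon-y chain, had 2 probes. Values of the first, ILMN_3141257, were 14.78, 14.79 and 14.73 in double transgenic livers and 14.74, 15.21 and 15.02 in controls. The second, ILMN_2723322, gave 14.76, 14.60 and 14.57 in double transgenic livers and 14.63, 14.83 and 14.97 in controls. On both probes the groups overlapped through the Vav-iCre control, whose level was the lowest of the controls. The differences were -0.22 (95% interval -0.66 to 0.21, adjusted p = 0.545) and -0.17 (95% interval -0.58 to 0.25, adjusted p = 0.649). Hbb-y thus gave values on the other side of 0 from Hba-x and Hbb-bh1, on probes near the signal ceiling, as described next. Whether brightness limited their range was not measured.

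The brightest probe on each array had a deposited signal between 37637 and 42784, and a probe at or above 50% of that signal was counted as near the ceiling. On all 6 arrays, 12 of the 17 measured globin probes were near it, namely both Hbb-y probes, the Hba-a1 probe and 9 of the 10 Hbb-b1 probes. Over the whole array 132 probes were near the ceiling on all 6 arrays, and of these 0 passed by limma, with 0 at an unadjusted p below 0.05. Their differences had an SD of 0.15 on the log2 scale, against 0.59 over all probes tested. To be counted here a probe had to stay at or above 50% of the brightest signal on every array. Small differences among the 132 thus follow in part from that choice and do not measure compression. A probe in this range can hide a rise or a fall, so the adult globins and Hbb-y are not shown to be unchanged.

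Hba-a1, an adult alpha gene whose sequence is nearly that of its neighbour Hba-a2, lay between 74.7% and 86.2% of the brightest signal. It stood at 14.92, 14.93 and 15.02 in double transgenic livers and at 14.88, 14.92 and 15.00 in controls, with overlapping groups and a difference of 0.02 (95% interval -0.36 to 0.40, adjusted p = 0.963). The 9 bright probes of Hbb-b1, an adult beta gene, ranged from 14.55 to 14.98 in double transgenic livers and from 14.62 to 15.02 in controls. Their differences ran from -0.10 to 0.05, and the smallest adjusted p was 0.796. On 2 of the 9 probes all double transgenic values lay below all control values, and on 7 the groups overlapped.

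The tenth Hbb-b1 probe, ILMN_1235372, was below 50% of the brightest signal on every array. Its levels were 13.363, 13.426 and 13.504 in double transgenic livers and 14.23, 14.02 and 13.62 in controls. The double transgenic values all lay below the control values, most closely for control replicate 3, and the difference was -0.53 (SE 0.21, 95% interval -0.998 to -0.054). It did not pass over all probes (adjusted p = 0.179), and this probe stood apart from the 9 near-ceiling probes of the same gene. Which transcripts it matches was not tested.

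Hbb-b2, the minor adult beta gene, had levels of 11.38, 12.23 and 12.68 in double transgenic livers and 11.57, 12.92 and 12.81 in controls. Replicate 1 was the low array in each group, and the groups overlapped. The difference of -0.34 (SE 0.42, 95% interval -1.29 to 0.62, adjusted p = 0.700) had the widest interval of the 22 probes. Without double transgenic replicate 1 it was 0.02 and without control replicate 1 it was -0.77, neither past the threshold. Hbb-b1 and Hbb-b2 are the adult beta genes of the d haplotype found in 129 mice, where C57BL/6 carries Hbb-bs and Hbb-bt. The labels give a mixed background, and the haplotype of each embryo was not tested.

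**Figure D3:**
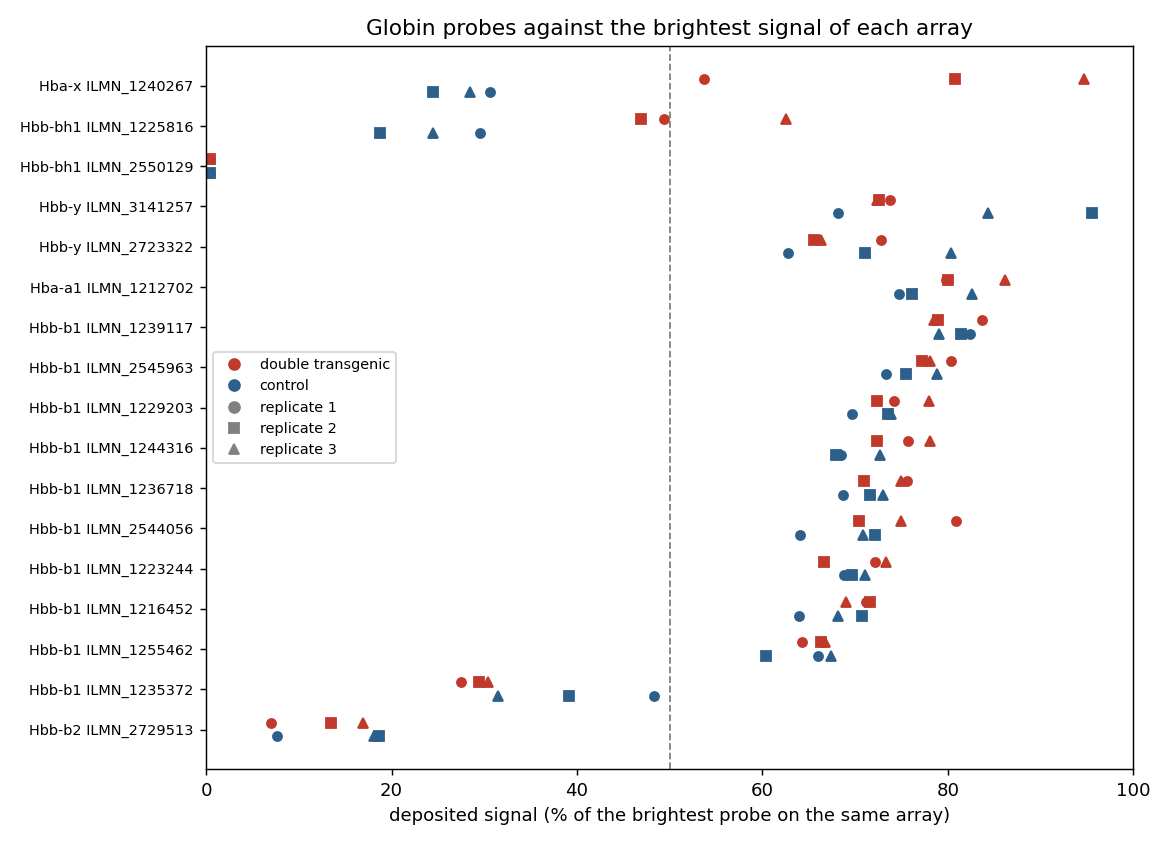
Deposited signal of the 17 globin probes on each array, as a percentage of the brightest probe on that array (horizontal axis), with double transgenic livers in red above controls in blue and marker shapes for replicates 1 to 3. The dashed line at 50% marks the ceiling range, which holds every array for 12 probes, and which Hba-x enters on all 3 double transgenic arrays and on no control array.

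The rise of Hba-x itself ran into this range. In deposited signal the Hba-x probe reached 53.7%, 80.7% and 94.7% of the brightest probe in double transgenic replicates 1 to 3, against 30.6%, 24.5% and 28.5% in control replicates 1 to 3. In the double transgenic livers Hba-x was thus near the ceiling on 3 of 3 arrays, and Hbb-bh1 on 1 of 3 (49.4%, 46.9% and 62.5%, against 29.5%, 18.8% and 24.5% in controls). Mean deposited signals of Hba-x were 29385 ± 7910 in double transgenic livers and 11332 ± 1642 in controls (SD, n = 3 each), a ratio of 2.59 before any normalization. Because the probe was near the ceiling in the double transgenic livers, this ratio and the fitted 2.56-fold may understate the difference in RNA. For the bright Hbb-bh1 probe they were 20324 ± 2782 in double transgenic livers and 9898 ± 2559 in controls, a ratio of 2.05.

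Embryonic and adult globins were next compared within each array, each probe taken as its distance from its own control mean. Over the 5 embryonic and 12 adult probes that were measured, embryonic minus adult was 0.55, 0.51 and 0.61 in double transgenic replicates 1 to 3, against 0.07, -0.14 and 0.07 in control replicates 1 to 3. The mean was 0.56 ± 0.05 in double transgenic livers, and the controls, centred on 0, had an SD of 0.12 (n = 3 each). No p is given for this score, since its members were chosen with results known. With the 12 near-ceiling probes left out, 3 embryonic and 2 adult probes remained, and the score was 1.60, 1.19 and 1.22 in double transgenic livers and 0.42, -0.48 and 0.07 in controls. Neither score is independent of the Hba-x and Hbb-bh1 differences given above. Of the 12 adult probes in the first, 10 were near the ceiling, and Hba-x stayed in the second because its control values lay below the ceiling range. Of the mean of 1.33 on the smaller set, 0.90 came from the embryonic probes and -0.43 from the adult probes.

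For 1 embryonic and 1 adult gene of the beta cluster that stayed below the ceiling on most arrays, Hbb-bh1 minus Hbb-b2, the score was 2.03, 1.08 and 1.01 in double transgenic livers and 1.11, -0.78 and -0.33 in controls. The groups overlapped, through the low Hbb-b2 signal of the Vav-iCre control. No such score is given for the alpha cluster, where Hba-a1 was near the ceiling on all 6 arrays.

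**Figure D4:**
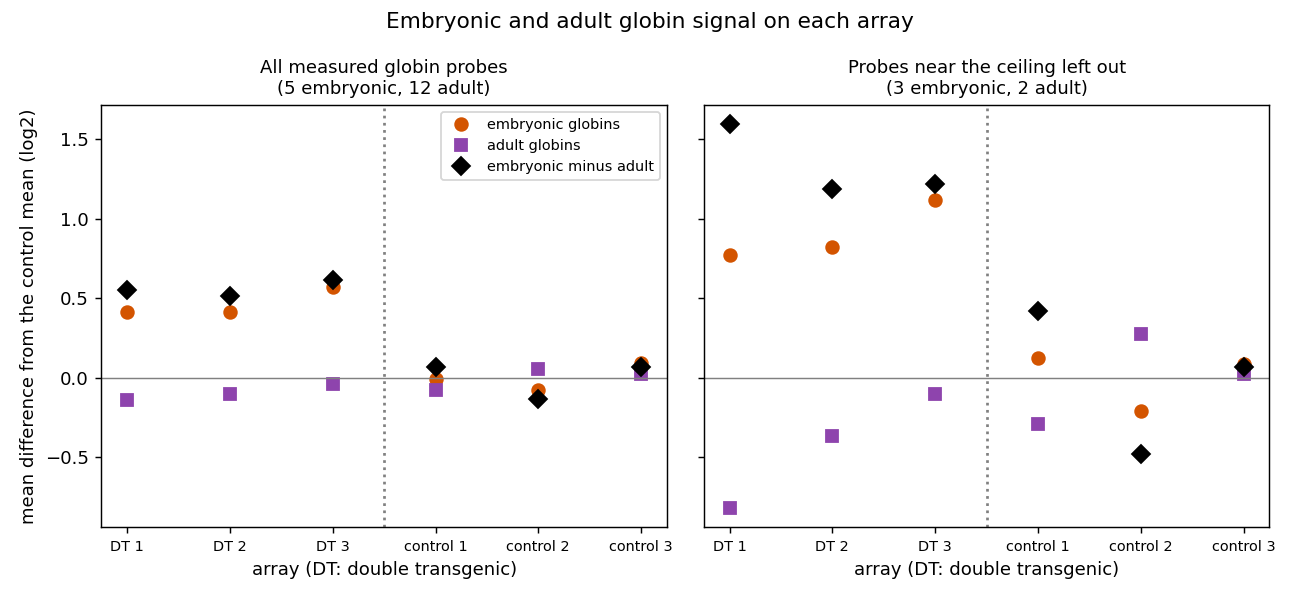
Mean difference from the control mean (log2, vertical axis) of the embryonic globin probes, the adult globin probes and their difference on each array, double transgenic livers left of the dotted line and controls right of it. The left panel uses all 17 measured globin probes and the right panel the 5 that were not near the ceiling on all 6 arrays. The embryonic minus adult values of the double transgenic livers (0.51 to 0.61 at the left, 1.19 to 1.60 at the right) lie above those of the controls in each panel.

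Bcl11a, the repressor of embryonic beta-like globins, had 2 measured probes. ILMN_1257463 read 10.47, 10.46 and 10.29 in double transgenic livers and 9.50, 9.75 and 9.62 in controls. The groups did not overlap, the means were 10.41 ± 0.10 in double transgenic livers and 9.62 ± 0.12 in controls (SD, n = 3 each), and the difference of 0.78 (SE 0.18) passed (adjusted p = 0.0288). It kept its sign but lost the call when any array other than double transgenic replicate 1 was left out (adjusted p from 0.0610 to 0.116). ILMN_2712044 read 10.15, 10.82 and 10.49 in double transgenic livers and 9.51, 10.27 and 10.42 in controls, which overlapped, with a difference of 0.42 (95% interval -0.23 to 1.06, adjusted p = 0.439). Without control replicate 1, the lowest of its 6 values, this probe stood at 0.14. Taken by its brighter probe, ILMN_2712044, Bcl11a as a gene did not pass.

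Myb, a transcription factor of progenitors, was read by a dim probe at 6.48, 6.58 and 6.35 in double transgenic livers and 5.37, 5.48 and 6.13 in controls. The double transgenic values all lay above the controls, and the difference of 0.81 (SE 0.23, 95% interval 0.28 to 1.34) did not pass (adjusted p = 0.0745). It passed without control replicate 3 (1.04, adjusted p = 0.0393) and with array weights (adjusted p = 0.0337), and it stood at 0.29 with no background correction (adjusted p = 0.145). In deposited signal the difference was small, with 160.4 to 217.0 over all 6 arrays. Of 5 measured early progenitor markers Gata2 rose by 1.08 (SE 0.20, adjusted p = 0.0114). Kit stood at 0.77 (adjusted p = 0.0867), Myc at 0.49 (adjusted p = 0.443), Cd34 at -0.08 (adjusted p = 0.924) and Meis1 at -0.64 (adjusted p = 0.155), so the list did not move one way. Its summed intensity was 1694 to 2142 in double transgenic livers and 1303 to 1576 in controls. Kit is part of that sum, at log2 levels of 10.20, 10.12 and 9.63 in double transgenic replicates 1 to 3. Control replicates 1 to 3 stood at 8.88, 9.32 and 9.42. Whether this probe also reads RNA of the KIT transgene was not tested. The part of these markers in the Bcl11a and Myb values was not tested. Bcl11a is also made by B lymphoid cells, of whose 7 markers on the array only Cd79b passed the filter, at -0.77 (adjusted p = 0.160).

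Klf1, the activator of adult beta-globin, stood at 12.79, 13.21 and 13.10 in double transgenic livers and at 13.02, 13.34 and 13.08 in controls. Sox6, the partner of BCL11A, stood at 7.24, 7.09 and 7.67 in double transgenic livers and at 7.46, 7.59 and 7.19 in controls. For each the groups overlapped. The difference was -0.11 for Klf1 (95% interval -0.56 to 0.33, adjusted p = 0.790) and -0.08 for Sox6 (95% interval -0.57 to 0.42, adjusted p = 0.874). A change within these intervals cannot be told from none with 3 arrays a group.

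Other genes of globin control were described by 6 lists, each gene by its brightest measured probe. Of 83 measured genes 4 passed (4.82%), 1 higher and 3 lower in double transgenic livers, against 8.64% of 12262 genes (2.35% higher and 6.29% lower). Their median difference was 0.09, and 0.07 over all genes. With the replicate number as a block 3 were higher and 6 lower, and without control replicate 2 or 3 or double transgenic replicate 2 or 3 no list gene passed.

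Among 27 activators and looping factors, whose median was 0.02, 2 fell and 25 did not pass. Klf2, which activates embryonic beta-like globin in mouse primitive red cells, fell by 1.26 (SE 0.27, adjusted p = 0.0215), with means of 5.42 ± 0.51 in double transgenic livers and 6.68 ± 0.16 in controls, and its detection p was below 0.05 on 2 of 3 double transgenic arrays. With no background correction it stood at -0.47 (adjusted p = 0.0533). Tcf3, which encodes the E-protein partner of TAL1, fell by 1.24 (SE 0.25, adjusted p = 0.0162), while its other probes reached 0.36. Gata1, the master erythroid factor, stood at 0.00 (SE 0.19, adjusted p = 0.996). Its partner Tal1 stood at -0.65 (SE 0.17, adjusted p = 0.0552), and it passed in 10 of 20 alternatives, among them no background correction (-0.62, adjusted p = 0.0106).

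The 32 repressors and corepressors had a median of 0.22, and 6 of their differences were below 0. Of them 1 rose and 31 did not pass. An unadjusted p below 0.05 was reached by 7 of the 32, all higher in double transgenic livers. That is 21.9% of the list, against 22.1% of all probes in either direction (10.6% higher and 11.5% lower). Gatad2b, a subunit of the NuRD complex that BCL11A recruits, rose by 0.78 (SE 0.18, adjusted p = 0.0331), with a second probe at 0.41. It passed in 10 of 20 alternatives and stood at 0.30 with no background correction (adjusted p = 0.0872). Zbtb7a, which encodes the globin repressor LRF, stood at -0.39 (adjusted p = 0.443), and Ikzf1, which encodes Ikaros, at 0.38 (adjusted p = 0.224). Of 7 developmental timing factors Trim71, an RNA-binding target of let-7, fell by 1.39 (SE 0.35, adjusted p = 0.0429), being above background on 1 of 3 double transgenic arrays, and stood at -0.52 with no background correction (adjusted p = 0.103). The remaining 6 did not pass, among them Lin28b at 0.52 (adjusted p = 0.210) and Igf2bp3 at -0.59 (adjusted p = 0.116). By limma none passed among 3 other globin genes (median -0.36), among 6 genes of the alpha-globin chaperone Eraf and the alpha-globin neighbourhood (median 0.08), or among 8 genes of globin mRNA stability and translation (median 0.02). At an unadjusted p below 0.05 these 3 lists had 0 of 3, 2 of 6 and 0 of 8 genes, against 22.1% of all probes. By the same measure 1 of the 7 timing factors was higher and 3 were lower (57.1%). Of the 27 activators and looping factors 2 were higher and 5 lower (25.9%). All these list shares count genes by their brightest probe, while the 22.1% counts probes.

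Marker signals of some cell types also differed between the groups. The 12 general erythroid markers had a median of -0.34, 1 of them falling and 11 not passing, and their summed intensity was 55382 to 83190 in double transgenic livers and 95377 to 100721 in controls. The marker that fell was Alas2, the enzyme that starts erythroid heme synthesis, by 1.35 (SE 0.28, adjusted p = 0.0189). All 11 hepatoblast and hepatocyte markers fell, with summed intensities of 21245 to 41243 in double transgenic livers and 103187 to 117662 in controls, and 8 of 10 macrophage markers fell (1415 to 2463 against 6857 to 7168). Of 7 endothelial markers Lyve1 fell, by 0.88, and 6 did not pass (1535 to 2631 against 2472 to 2702), and of 7 megakaryocyte markers none passed (5823 to 12596 against 9676 to 13866). Over all 12262 genes 8.64% were called, 6.29% of them all being lower. A single call among 12 erythroid or 7 endothelial markers does not set those lists apart from that share. Each sum is weighted toward the brightest probes of its list and does not describe every marker. In such bulk RNA, fewer cells of a type and less RNA per cell cannot be told apart. The part of these shifts in the globin values was not tested.

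**Figure D5:**
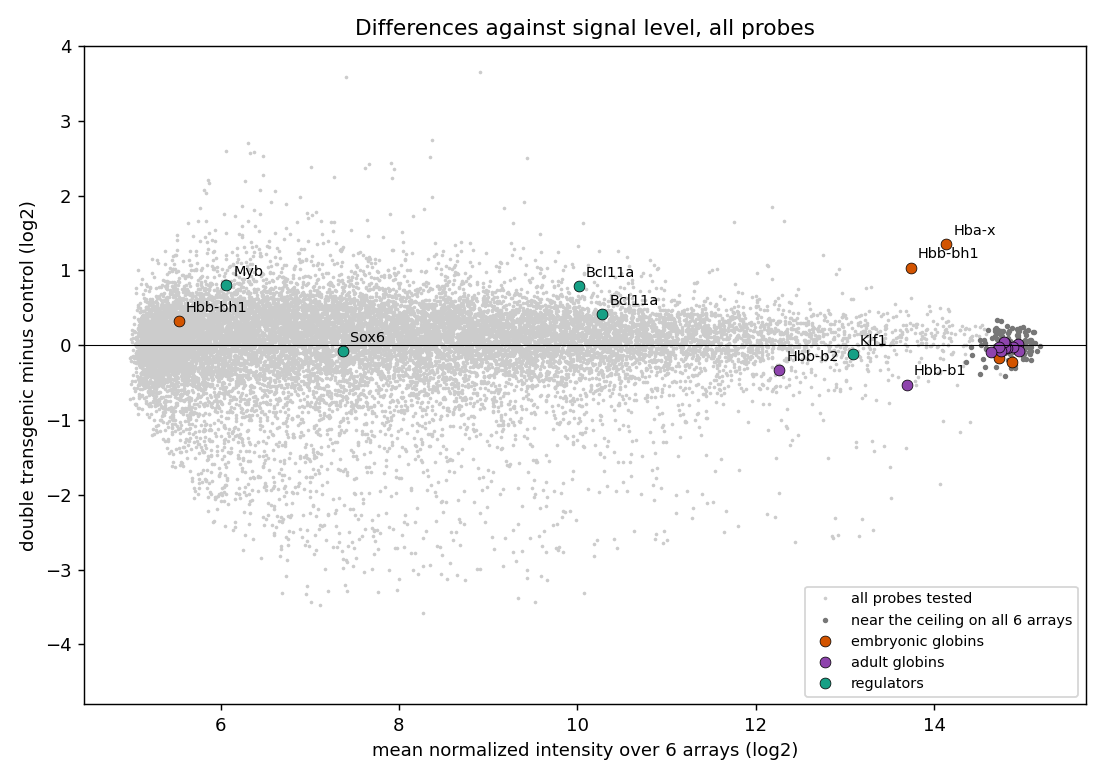
Difference, double transgenic minus control (log2, vertical axis), against the mean normalized intensity over 6 arrays (log2, horizontal axis) for all 17855 probes tested in grey, with probes near the ceiling on all 6 arrays darker and the globin and regulator probes in colour. The near-ceiling globin probes lie within the narrow cluster at the right, and Hba-x and the bright Hbb-bh1 probe stand above 1 at a level between 13 and 15.

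The probes whose profile over the 6 arrays came closest to that of Hba-x, by Euclidean distance between log2 values centred on their own mean, were those named AA517739 (distance 0.20), Gm129 (0.21) and Jmjd1a (0.28) in the file. Jmjd1a is an older symbol of the histone demethylase gene Kdm3a, and Gm129 of the clock gene Ciart. For the bright Hbb-bh1 probe they were Gpihbp1, a lipoprotein lipase anchor of capillaries (0.26), Piga, an enzyme of GPI anchor synthesis (0.26), and Shprh, a ubiquitin ligase (0.27). None of the 6 probes belongs to another globin. Most globin probes were near the ceiling on all 6 arrays, with differences of -0.22 to 0.05. They could hardly come close to a profile that rose, so their absence is no separate result.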

How the data were processed

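The 6 arrays came from fetal livers, 3 double transgenic and 3 control, grouped by their titles. The authors deposited a bead-averaged signal intensity for each probe and array on a linear scale, before any normalization, per the file headers, and a detection p-value against negative control beads. The authors' deposited value table holds quantile normalized intensities of the same probes. Per the submitters' processing notes GenomeStudio was used; its version and any background subtraction are not given in the sources used here.

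Intensities were corrected with neqc (offset 16, negative controls inferred from detection p), quantile normalized and put on the log2 scale with limma 3.58.1 in R 4.3.3. Probes with detection p below 0.05 on at least 3 of 6 arrays were kept, and each was tested with lmFit and eBayes, two-sided, Benjamini-Hochberg over 17855 probes. Steps were tested on simulated data. List genes were matched through a RefSeq table (GRCm38.p6), with 8359 probe symbols updated. Members and lists were chosen with earlier results of these data known. All 10 members were named, up to 4 called genes of each other list, which were the 83 pathway genes and the markers (of which the hepatocyte and macrophage calls are given as counts), and 3 nearest profiles of Hba-x and of Hbb-bh1. Gata1, Tal1, Zbtb7a, Ikzf1, Lin28b, Igf2bp3, Lmo2, Kit, Myc, Cd34, Meis1, Cd79b and Tpi1 fall outside this rule and were chosen after their values were seen. Across probes, same-numbered arrays shared deviations from their group means, with correlations of 0.53, 0.28 and 0.20. Values were as high or higher between double transgenic 2 and control 3 (0.37) and between double transgenic 3 and control 2 (0.20). Only number 1 thus stood out as a match. Each same-numbered correlation exceeded 0.1, so the titles' numbers were used as a block in an alternative. Each array detected 38.1% to 39.5% of its probes, and the number of arrays limits the precision.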

Additional observations from a re-analysis of the deposited data

How the results depend on the processing

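Of 20 alternatives planned for each result, the Hba-x call held in 19, that of the bright Hbb-bh1 probe in 16, and that of Bcl11a ILMN_1257463 in 13 of the 18 that tested it. Several alternatives keep the same difference and change only the filter, the variance or the adjustment. These tallies are thus not counts of independent checks. The member probes called higher numbered 0 to 3 without single arrays and 1 with the probes of a symbol averaged, and none was called lower in any alternative. Over all probes, 134 to 624 were called higher and 611 to 1216 lower without single arrays, 1745 and 1983 with array weights, 910 higher with the replicate block and 1009 higher without replicate 1 of both groups. List genes called higher numbered 0 to 3 and lower 0 to 4 without single arrays. They were 0 higher with normexp at offset 50, with cyclic loess, with no normalization between arrays and with trend and robust moderation. Those higher and lower were 3 and 6 with the replicate block, 6 and 9 with array weights, and 4 and 5 without replicate 1 of both groups. With averaged probes 2 were higher, and 1 was lower with no filter or with detection required on all 6 arrays. The list genes called from the authors' values, or from signals without background correction, were Lmo2, Tal1 and Tcf3, and Gatad2b, Klf2 and Trim71 were not. Over 20 alternatives Tcf3 passed in 15 and Trim71 in 10 of the 19 that tested it. The gene lower with no filter was Tal1. The block changed no member's call.

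The globin score was 0.85 with 1 probe per symbol, 0.745 with averaged probes, and 1.33 with near-ceiling probes left out, which was chosen after seeing the data. The sign of small uncalled differences depended on scaling. With median scaling the Hbb-b1 probes ILMN_2545963, ILMN_1229203, ILMN_1236718, ILMN_1223244, ILMN_1216452 and ILMN_1255462 stood at 0.0363, 0.034, 0.0395, 4e-04, 0.0484 and 0.014. With cyclic loess Hba-a1 stood at -0.0811 and Hbb-b1 ILMN_1244316 and ILMN_2544056 at -0.0477 and -0.0318. Hba-a1 was at -4e-04 with no normalization between arrays, and Hbb-b1 ILMN_2544056 at -0.0432 with array weights and -0.0648 without replicate 1 of both groups. Without single arrays Hba-a1 ranged from -0.0107 to 0.053, Hbb-b1 ILMN_2544056 from -0.0095 to 0.0908 and ILMN_1216452 from -0.0771 to 0.0081, Hbb-b2 from -0.77 to 0.0224, Sox6 from -0.25 to 0.0429 and Klf1 from -0.20 to 0.0055. The cause was not tested. Signal near the ceiling may limit the globins, which was not measured, and signal near background limits Myb, Sox6 and the dim Hbb-bh1 probe.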

Other observations

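The bright end of the array, looked at after the values were seen, was examined for its calls. Of 416 probes with a mean level of at least 13 on the log2 scale, 4 were called higher and 14 lower in the double transgenic livers. Over all 17855 probes 2.32% were called higher and 5.78% lower. Hba-x and the bright Hbb-bh1 probe had the highest differences of these 416, and the next probe, of the glycolytic enzyme Tpi1, stood at 0.77. Of the 416 probes, 132 were near the ceiling on all 6 arrays and 0 of those were called by limma (0 at an unadjusted p below 0.05). Those 132 were counted for staying in that range on every array, so this ranking is partly against probes with little room to move. It restates the calls of Hba-x and Hbb-bh1 and adds no separate result.

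The lone Vav-iCre control lay outside the range of the 2 R26-LSL-KITD816V controls on most of the 22 probes. This is common where 1 array is set against the range of 2, and the share over all probes was not computed. The gap was widest for Hbb-b2, where this control stood at 11.57, against 12.81 and 12.92. Next came Bcl11a ILMN_2712044, at 9.51, against 10.27 and 10.42. With 1 array of this genotype, genotype and array cannot be told apart.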
